A study of Mus musculus with 3 samples.

Results

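Endothelial cells (ECs) that carry transcripts of the vein genes *Slc6a2* and *Nr2f2* were selected from scRNA-Seq libraries of P14 mouse lungs, 110 of the 7642 cells that passed the filters. *Slc6a2* encodes the norepinephrine transporter, and *Nr2f2* encodes COUP-TFII, a nuclear receptor that sets vein identity. The rule read raw unique molecular identifiers (UMIs), the tags that count captured transcripts, in each cell. It asked for at least 4 UMIs of the endothelial genes *Cdh5* and *Cldn5* together and at least 2 UMIs of *Slc6a2* and *Nr2f2* together. Cells with any UMI of *Ptprc* (leukocytes), *Prox1* or *Mmrn1* (lymphatics), more than 5 UMIs of *Col1a1* and *Col1a2* (stroma), or 2% or more of UMIs from *Sftpc* (epithelium) were left out. So were cells with more than 1 UMI of *Gja5* (arteries) or more than 1 UMI of *Ednrb*, *Apln*, and *Fibin* together (*Car4*-type capillaries). These genes and the mitochondrial genes chose the cells, so their levels are a description and were not tested. The selected cells are called vein-gated ECs here, because not all of them carried the vein markers *Vwf* and *Prss23*.

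The study asked where the Notch ligand *Dll4* is expressed in the developing lung, and its scRNA-Seq libraries came from the lungs of 3 C57BL/6 mice. The mice were wild type with no transgene, were kept in room air (RA) from P1, and were studied at P14. They are numbered 2, 3, and 4. They form 1 condition, each mouse gave 1 library of digested lung, and the mice are the replicates. Classes of cells from the same 3 lungs were therefore compared with each other, and no treatment was compared.

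Veins of the lung return oxygenated blood to the heart, and their endothelium differs from that of arteries and capillaries in its receptors, adhesion molecules, and secreted proteins. In many vascular beds COUP-TFII holds Notch signaling low in veins, while arteries carry Notch ligands and the ligand ephrin-B2, and veins carry its receptor EphB4. Among capillary ECs of the alveolus are the wide *Car4*-positive cells next to type I epithelium and the *Aplnr*- and *Kit*-positive cells that can divide and give rise to both kinds.

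The deposited libraries held 9644 cells with 23744510, 22476491, and 25192427 UMIs in mice 2, 3, and 4. Of these cells, 2386, 2601, and 2655 passed the filters, which asked for 200 or more detected genes and a mitochondrial share of no more than 20% of UMIs. The vein-gated ECs numbered 35, 33, and 42 in mice 2, 3, and 4. The 839 other cells with at least 4 UMIs of *Cdh5* and *Cldn5* (323, 195, and 321) were the first comparator. The selected cells made up 9.78%, 14.5%, and 11.6% of such cells, a mean of 11.9% ± 2.37 (SD, n = 3). The 95% exact binomial intervals of these shares, which cover counting error only, overlapped in the 3 mice. Summed over a mouse, the vein-gated ECs held 437042, 329973, and 436350 UMIs, with a median of 8138.5 UMIs per cell against 8065 in the other ECs. Of 156 cells marked as doublets, 2 were among the members and 37 among the other ECs. The libraries shared at most 5 cell barcodes in pairs, and none of them was a member's.

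The classes compared with them were drawn from the other ECs under the same limits on leukocyte, stromal, epithelial, and lymphatic UMIs. Arterial ECs had at least 2 *Gja5* UMIs (92 cells, 37, 20, and 35 per mouse), and *Car4*-type capillary ECs had at least 2 UMIs of *Ednrb*, *Apln*, and *Fibin* together (160 cells, 57, 36, and 67). *Aplnr*/*Kit* capillary ECs had at least 2 UMIs of *Aplnr* and *Kit* together (352 cells, 148, 71, and 133). Arterial and *Aplnr*/*Kit* capillary ECs had at most 1 UMI of *Ednrb*, *Apln*, and *Fibin* together. Both capillary classes had at most 1 *Gja5* UMI. All 3 classes had at most 1 UMI of *Slc6a2* and *Nr2f2* together. Levels are given as CPM, the UMIs of a gene per 1000000 UMIs summed over the cells of a class in 1 mouse.

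The vein-gated ECs fell into 2 kinds by *Slc6a2*. Of the 110 cells, 54 had at least 1 *Slc6a2* UMI (14, 19, and 21 in mice 2, 3, and 4), and 56 were selected by *Nr2f2* alone (21, 14, and 21). The 54 are called *Slc6a2*-positive members, and the 56 *Nr2f2*-only members. *Vwf*, the gene of von Willebrand factor, reached 10 UMIs or more in 53 of 54 *Slc6a2*-positive members and in 7 of 56 *Nr2f2*-only members. It had no UMI in 36 of the 56. The label "venous" therefore rests on the marker set in the *Slc6a2*-positive members, and the *Nr2f2*-only members mostly lacked *Vwf*. This split was noticed in these cells, and the values of the 2 kinds are a description.

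Per cell, *Vwf* ranged from 1 to 314 UMIs with a median of 58 in *Slc6a2*-positive members and from 0 to 28 with a median of 0 in *Nr2f2*-only members. *Prss23*, the gene of a secreted serine protease, had a median of 8 UMIs (0 to 62) against 1 (0 to 13). *Eln*, the gene of the elastic fiber protein elastin, had a median of 146.5 UMIs (7 to 1336) against 11 (1 to 96). These genes were high where *Slc6a2* was present, although the rule did not read them. *Kit*, the receptor of stem cell factor, went the other way, with a median of 0 UMIs (0 to 16) in *Slc6a2*-positive and 8 (0 to 33) in *Nr2f2*-only members. *Sema3c*, the gene of a secreted guidance cue, had a median of 0 (0 to 52) against 24 (0 to 92). The median depth was 7349 UMIs per cell in *Slc6a2*-positive and 9172.5 in *Nr2f2*-only members.

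**Figure D1:**
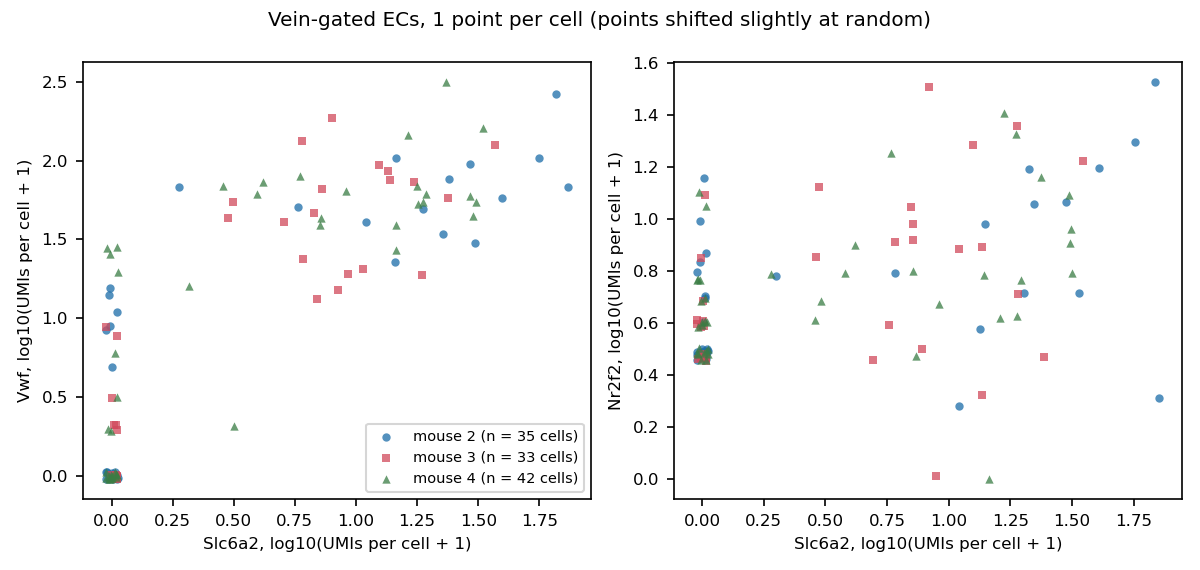
*Vwf* (left) and *Nr2f2* (right) against *Slc6a2* in the 110 vein-gated ECs, all as log10(UMIs per cell + 1), with each point a cell, its color and shape the mouse, and its place shifted slightly at random. Cells at 0 on the x axis are the *Nr2f2*-only members, and *Vwf* was at 10 UMIs or more in 53 of 54 *Slc6a2*-positive and 7 of 56 *Nr2f2*-only members.

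By mouse, *Vwf* stood at 6788, 6107, and 7594 CPM in *Slc6a2*-positive members and at 203, 144, and 446 CPM in *Nr2f2*-only members. *Prss23* stood at 1226, 975, and 927 CPM against 168, 101, and 252 CPM. *Cpe*, the gene of the prohormone-processing enzyme carboxypeptidase E, stood at 837, 1300, and 1512 CPM against 7.13, 21.6, and 84.1 CPM. In each of these genes every mouse's *Slc6a2*-positive value was above every *Nr2f2*-only value. *Kit* stood at 179, 152, and 30.2 CPM in *Slc6a2*-positive and at 842, 762, and 723 CPM in *Nr2f2*-only members, beside 905 ± 33.0 CPM (SD, n = 3) in *Aplnr*/*Kit* capillary ECs. *Sema3c* stood at 2389 ± 39.3 CPM in *Nr2f2*-only members, beside 2065 ± 162 CPM in *Aplnr*/*Kit* capillary ECs. *Kit* was among the genes that chose the latter class. In *Sema3c* and *Vwf* the *Nr2f2*-only members lay nearer to the *Aplnr*/*Kit* capillary ECs than to the *Slc6a2*-positive members.

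The edge of the rule ran through the *Nr2f2*-only members. Just inside it, 28 members had exactly 2 UMIs of the pair (13, 6, and 9 per mouse), and all of these were *Nr2f2* UMIs. Just outside, 65 cells that met every other limit had 1 UMI of the pair (28, 14, and 23). *Vwf* averaged 42.9 CPM just inside and 123 CPM just outside, and *Prss23* 151 CPM and 85.8 CPM.

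The rule also left out ECs that carried the vein markers. Of the 949 ECs, 104 had a *Slc6a2* UMI, and 50 of them (21, 17, and 12) stayed in the comparator. Of these, 44 exceeded the limit on *Ednrb*, *Apln*, and *Fibin*, 37 failed no other limit, and in 34 *Ednrb* alone exceeded it. *Ednrb*, the endothelin receptor B, had a UMI in 57 of the 104 *Slc6a2*-positive ECs (54.8%). The 50 cells left out had a median of 71.5 *Vwf* UMIs, and 47 of them had 10 or more. Their median depth was 11456.5 UMIs, and 1 was a marked doublet. They held 1727 CPM of *Slc6a2*, 5189 CPM of *Vwf*, and 1163 CPM of *Prss23*, levels of the order of the *Slc6a2*-positive members. The comparator of all other ECs thus holds *Vwf*-high cells.

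The genes of the marker set lie at chr8:92960079-93001667 (*Slc6a2*, plus strand), chr7:70351944-70366735 (*Nr2f2*, minus strand), chr6:125546774-125686679 (*Vwf*, plus strand), and chr7:89507783-89527187 (*Prss23*, minus strand) on GRCm38. COUP-TFII belongs to the nuclear receptors, whose family binds DNA at half-sites with the letters AGGTCA. The promoter windows that RefSeq gives for *Prss23* (250 bases before to 50 after a start) were searched for these letters on both strands, since *Prss23* was the vein marker outside the rule that set the members apart from all 3 other classes. A window of *Nr2f2*, also a gene of the marker set, held none of these letters. Of the 7 windows of *Prss23*, 2 held them. These 2 overlap, and the longer-reaching one, chr7:89518155-89518454 on the minus strand of GRCm38.p6, is shown 5′ to 3′ with the letters AGGTCA or their complement in capitals.
Prss23: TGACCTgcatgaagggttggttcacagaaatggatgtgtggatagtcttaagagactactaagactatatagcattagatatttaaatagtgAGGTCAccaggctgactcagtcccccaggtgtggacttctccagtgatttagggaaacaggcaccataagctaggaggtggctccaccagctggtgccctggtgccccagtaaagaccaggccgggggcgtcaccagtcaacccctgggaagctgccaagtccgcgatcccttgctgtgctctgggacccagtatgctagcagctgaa

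AGGTCA was in 16.3% of all 32851 promoter windows of this length. It was in 0 of 11 windows of 9 of the named genes in the comparison that follows. A match is a description of the sequence and not of binding.

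Against all other ECs, the vein-gated ECs carried more transcripts of a scavenger receptor (*Ackr3*), a peptide-processing enzyme (*Cpe*), and a fibrinogen-like protein (*Fgl2*), and fewer of *Car4*, the T-box gene *Tbx2*, and the chemokine receptor gene *Cxcr4*. Of 10007 genes tested with edgeR's quasi-likelihood test on the sums per mouse, 567 (5.67%) had a Benjamini-Hochberg adjusted p under 0.05, 271 higher (2.71%) and 296 lower (2.96%). The count was 226 without mouse 3 and 141 without mouse 4, each a fit of 2 mice against 2. With the comparator limited to cells with at most 1 UMI of *Slc6a2* and *Nr2f2* together, it was 780 (416 higher and 364 lower), and 478 genes were called in both in the same direction. With that comparator the log2 fold changes were 3.16 for *Ackr3*, 2.72 for *Cpe*, 6.74 for *Moxd1*, and 6.39 for *Fgl2*, each larger than against all other ECs.

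*Ackr3*, which encodes a receptor that takes up the chemokine CXCL12, stood at 451, 600, and 726 CPM in the vein-gated ECs and at 137, 126, and 130 CPM in the other ECs of mice 2, 3, and 4. The lowest vein-gated value was above the highest of the other ECs, with a log2 fold change of 2.22 ± 0.15 (SE; adjusted p = 6.06e-06). *Cpe* stood at 304, 761, and 733 CPM against 105.4, 145, and 113 CPM, with a log2 fold change of 2.35 ± 0.27 (adjusted p = 2.72e-04). Among the vein-gated ECs mouse 2 was the lowest in both genes, and the groups did not overlap in either. *Moxd1*, which encodes a relative of dopamine beta-hydroxylase, had the highest log2 fold change of the named genes, 3.72 ± 0.37 (adjusted p = 1.33e-04), with 36.6, 109, and 119 CPM against 6.85, 7.51, and 6.17 CPM. *Fgl2* rose by 2.47 ± 0.16 on the log2 scale (340 against 62.5 CPM; adjusted p = 6.06e-06).

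The 14 named genes that were higher were chosen by fold among genes past the test, with at least 50 CPM and no overlap between the mice. No overlap in this direction was seen in 9.57% of all genes tested. Those reported here are *Moxd1*, *Adamtsl3*, *Pcdh7*, *Ncam1*, *Rnf165*, *Tmem45a*, *Fgl2*, *Cpe*, *Pgm5*, *Cygb*, *Ackr3*, *Ctnnal1*, and *Lhx6*, with log2 fold changes from 2.21 to 3.72. *Pcdh7* and *Ncam1* encode cell adhesion molecules, *Cygb* encodes the oxygen-binding protein cytoglobin, and *Lhx6* encodes a LIM homeobox transcription factor. All 14 were higher in *Slc6a2*-positive than in *Nr2f2*-only members without overlap, while 8.87% of all genes tested were. This was read in the same cells and was not tested. *Cygb* lost the call without mouse 3 (adjusted p = 0.0504) or 4 (0.0952), *Tmem45a* without mouse 3 (0.0755), and *Ctnnal1* without mouse 4 (0.0501). Fitted with the *Nr2f2*-only members alone, 11 of the 14 could be tested, and *Lhx6* was the one that passed (1.53). There *Ncam1* (-1.92), *Fgl2* (-1.14), *Cpe* (-1.67), *Pgm5* (-1.05), and *Cygb* (-2.99) had a negative log2 fold change, none past the test.

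The 14 named genes that were lower included 4 with 1 to 3 UMIs in all vein-gated ECs, and the other 10 had log2 fold changes from -6.22 to -3.41. No overlap in this direction was seen in 15.1% of all genes tested. Between the 2 kinds of member, 4 of the 14 were lower in *Slc6a2*-positive members without overlap, and 10 overlapped. Over all genes tested 14.4% were lower there without overlap. In 5 of the 14 the mean was higher in *Slc6a2*-positive members, and the split was not tested. *Car4*, the carbonic anhydrase of alveolar capillaries, stood at 4.58, 18.2, and 16.04 CPM against 217, 319, and 258 CPM, a log2 fold change of -4.35 ± 0.29 (adjusted p = 6.06e-06). *Tbx2*, a T-box transcription factor, stood at 9.15, 15.2, and 9.17 CPM against 158, 246, and 182 CPM (-4.11 ± 0.30). *Cxcr4*, the signaling receptor of CXCL12, stood at 36.6, 6.06, and 2.29 CPM against 183, 180, and 156 CPM (-3.41 ± 0.37). The 3 genes were low in every mouse. The log2 fold change of *Cxcr4* ran from -5.34 to -2.92 when 1 mouse was left out. The others were *Slc45a4*, *Atp13a3*, and *Slc22a23*, which encode transporters, the matrix or mesenchymal genes *Mfap4*, *Col6a1*, *Col6a3*, *Postn*, *Ltbp2*, and *Gsn*, the immunoglobulin gene *Ighm*, and *Gucy1a3*, a subunit of the nitric oxide receptor. *Slc45a4* had 1 UMI in the vein-gated ECs, and its ratio of pooled CPM, other to vein-gated ECs, was 115 with a 95% exact interval from 20.6 to 4559 that covers counting error only. *Atp13a3* (43.7, 12.1 to 362), *Col6a1* (29.4, 8.10 to 244), and *Col6a3* (19.99, 6.80 to 97.3) had 2 or 3 UMIs. *Mfap4*, *Ighm*, and *Gucy1a3* were not called once the comparator was held to the same limits on leukocyte, stromal, and epithelial UMIs. *Col6a1*, *Col6a3*, *Postn*, *Ltbp2*, and *Gsn* did not pass the filter on low counts there and were not tested. Without mouse 4, *Col6a1*, *Col6a3*, *Gsn*, and *Mfap4* lost the call (adjusted p = 0.0952, 0.362, 0.133, and 0.103), as *Col6a3* did without mouse 3 (0.191). With stricter cell filters *Col6a1*, *Col6a3*, *Gsn*, and *Postn* lost it, and with marked doublets removed *Mfap4* and *Ighm*.

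**Figure D2:**
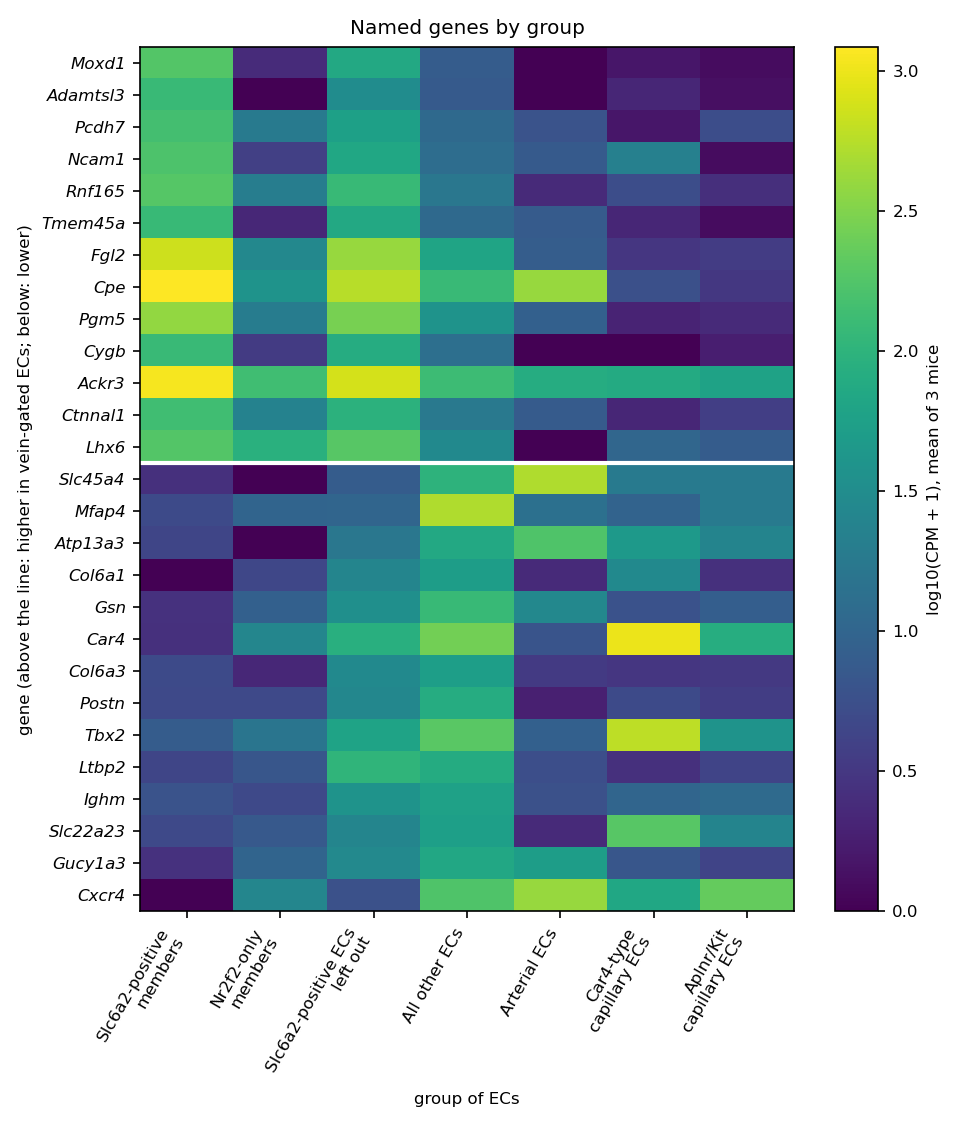
Heat map of log10(CPM + 1), from the mean of the 3 mice, of genes named against all other ECs (rows; higher in vein-gated ECs above the white line, lower below it) in the 2 kinds of member, the *Slc6a2*-positive ECs that the rule left out, all other ECs, and the 3 EC classes (columns). The genes above the line are brighter in *Slc6a2*-positive than in *Nr2f2*-only members, as for *Moxd1* at a mean of 183 against 1.40 CPM.

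Of 11 genes in the vein list, 10 were tested against all other ECs, and 9 rose and none fell, with a median log2 fold change of 1.66 beside -0.0006 over all genes tested. Of all genes tested, 2.71% were higher and 2.96% lower. *Vwf* rose by 1.60 ± 0.17 (3283 ± 626 against 1118 ± 244 CPM), and *Prss23* by 1.72 ± 0.13 (571 ± 31.3 against 179 ± 32.9 CPM). *Ephb4*, the receptor of ephrin-B2, rose by 0.72 ± 0.10, and *Nrp2*, a coreceptor for VEGF-C and class 3 semaphorins, by 1.13 ± 0.27. *Vegfc*, the lymphatic growth factor, rose by 1.36 ± 0.13 (200.5 against 81.0 CPM). *Car8* (1.99), *Amigo2* (1.91), and *Bst1* (1.82) rose as well. *Selp*, the gene of P-selectin, had 20.03 against 22.8 CPM (adjusted p = 0.91), and *Ackr1*, a marker of venules in other organs, had no UMI in the vein-gated ECs or in the 3 other classes. The list holds *Vwf* and *Prss23*, which were proposed as markers of these cells with earlier results known, so it is not independent evidence of their direction. Summed over the list, *Slc6a2*-positive members held 11170 CPM, *Nr2f2*-only members 1243 CPM, and all other ECs 2037 CPM, so the *Nr2f2*-only members were below the comparator.

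**Figure D3:**
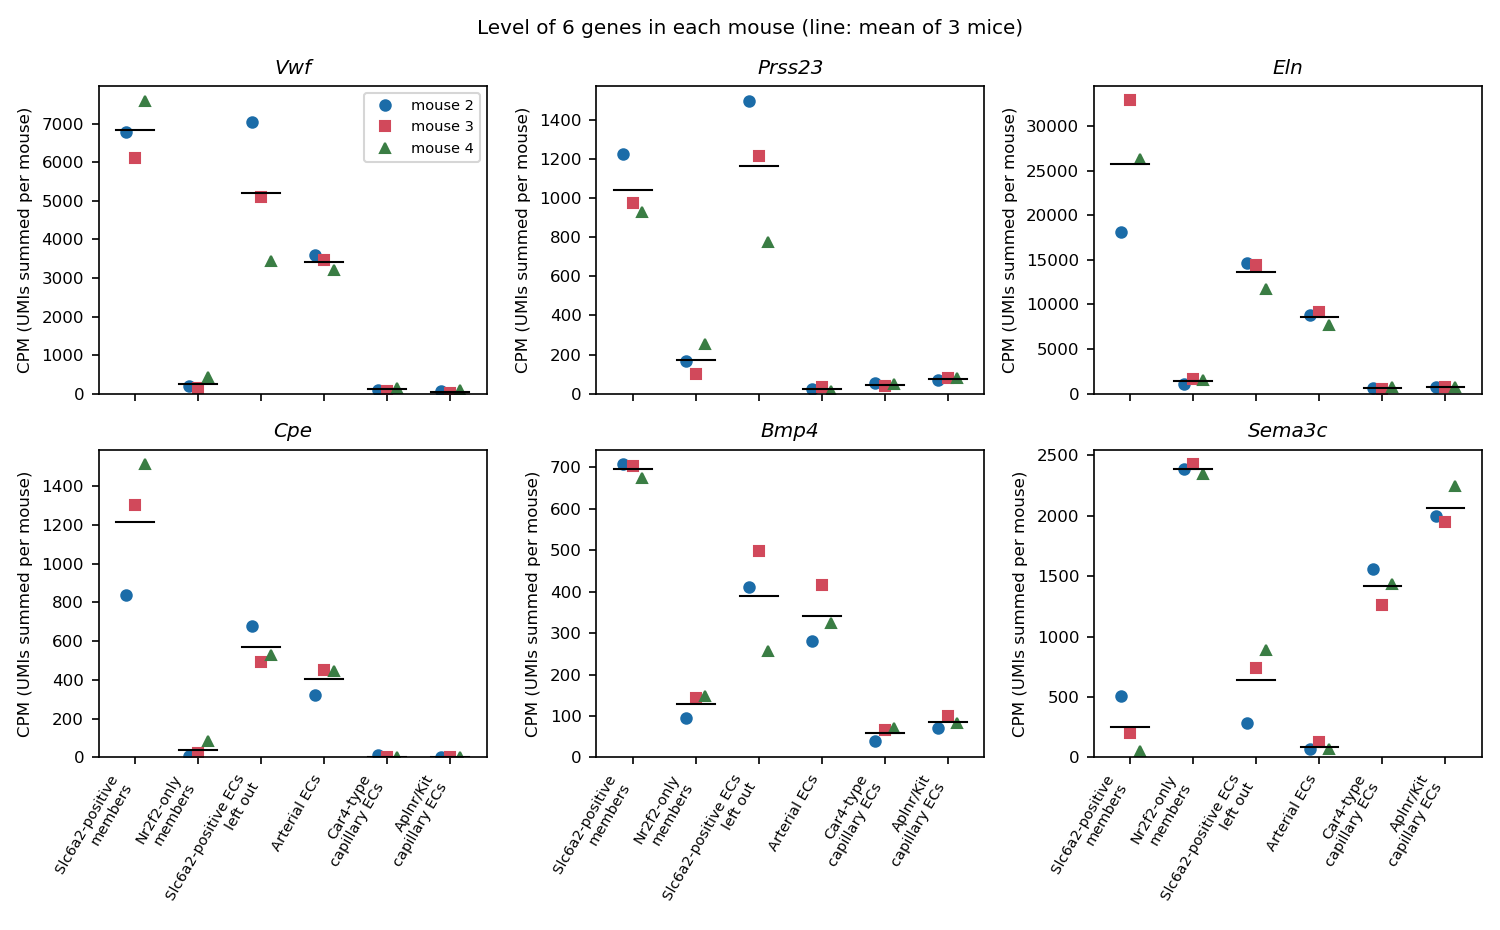
CPM of *Vwf*, *Prss23*, *Eln*, *Cpe*, *Bmp4*, and *Sema3c* on linear axes from 0 in the 2 kinds of member, the *Slc6a2*-positive ECs left out by the rule, and the 3 other EC classes, with each point a mouse and each line the mean of 3 mice. *Vwf* averaged 6829 CPM in *Slc6a2*-positive members, 264 CPM in *Nr2f2*-only members, and 3421 CPM in arterial ECs, and *Sema3c* was lower in *Slc6a2*-positive than in *Nr2f2*-only members.

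Against arterial ECs, of 7568 genes, 985 (13%) passed the test, 508 higher (6.71%) and 477 lower (6.3%). Without mouse 4 the count was 603. *Vwf* stood at 3283 ± 626 CPM in vein-gated and 3421 ± 195 CPM in arterial ECs (SD, n = 3), a log2 difference of -0.08 with a 95% interval from -0.50 to 0.35 (adjusted p = 0.89). This mean joins unlike cells, since *Slc6a2*-positive members alone had at least 6107 CPM in each mouse and *Nr2f2*-only members at most 446 CPM. *Prss23* was 571 ± 31.3 against 24.6 ± 8.65 CPM, a log2 fold change of 4.57 ± 0.20 (adjusted p = 3.09e-15). *Nrp2* had 201 UMIs in vein-gated and 1 in arterial ECs, a ratio of pooled CPM of 165 (95% exact interval 29.2 to 6533).

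The genes with the highest folds that also did not overlap included *Lhx6*, *Moxd1*, *Fabp4*, and *Cygb*. No overlap was seen in 14.4% of all genes tested in the higher and 11.9% in the lower direction. *Lhx6* stood at 96.1, 161, and 133 CPM and had no UMI in arterial ECs, which put it at least 41.8-fold higher against a floor of 3 counts over the arterial cells. *Moxd1* was at least 28.4-fold and *Cygb* at least 19.1-fold higher by the same floor. *Fabp4*, the fatty acid-binding protein of capillaries and veins, stood at 359, 2082, and 775 CPM against 2.84, 0, and 5.15 CPM. All 605 of its UMIs in *Nr2f2*-only members came from 4 cells, while 577 UMIs were spread over 40 *Slc6a2*-positive members.

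Of 13 tested genes of the artery list, 11 fell and none rose against arterial ECs, with a median log2 fold change of -2.28 beside 0.01 over all genes. Of all genes tested, 6.71% were higher and 6.3% lower there. Against the other comparators the list was mixed, with 3 higher and 7 lower against all other ECs, 5 and 4 against *Car4*-type, and 5 and 6 against *Aplnr*/*Kit* capillary ECs. All genes tested gave 2.71% and 2.96%, 8.09% and 6.71%, and 5.27% and 3.4% in the same order. *Efnb2*, the gene of ephrin-B2, was 223 against 1628 CPM (-2.88 ± 0.14), and *Cxcl12* was 121 against 2550 CPM (-4.42 ± 0.18). The Wnt antagonist gene *Dkk2* (130, 123, and 175 CPM in arterial ECs), the Notch target *Hey2*, the estrogen receptor gene *Esr2*, and *Kcne3*, a potassium channel subunit, had no UMI in any vein-gated EC. They were at least 58.6-, 40.3-, 34.2-, and 30.9-fold lower. *Slc45a4* had 0, 0, and 2.29 CPM against 593, 474, and 515 CPM, a ratio of 641 in favor of arterial ECs (115 to 25370). *Fbln2*, a fibulin of elastic fibers (1094 against 1029 CPM; 95% interval of the log2 difference -0.28 to 0.42), was not lower, and *Jag1* missed the test (119 against 171 CPM, adjusted p = 0.063).

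Against *Car4*-type capillary ECs, 1120 of 7568 genes passed the test (14.8%), 612 higher (8.09%) and 508 lower (6.71%). Without mouse 4 the count was 655, and without TMM scaling the split turned to 533 higher and 596 lower. *Vwf* was 3283 against 110 CPM (4.92 ± 0.26) and *Cpe* 599 against 4.61 CPM (6.81 ± 0.47). In the capillary ECs *Cpe* had 13.8, 0, and 0 CPM in mice 2, 3, and 4, from 8 UMIs. Its log2 fold change ran from 5.90 to 11.6 when 1 mouse was left out. *Fgl2* had 402 UMIs against 2 (ratio of pooled CPM 251, 95% exact interval 69.0 to 2077), and *Pgm5*, a phosphoglucomutase-like protein of adhesion sites, 221 against 1 (276, 49.0 to 10940). *Cygb*, with no UMI in the capillary ECs, was at least 29.1-fold higher, and *Moxd1* (104 UMIs against 1) completed the 5 highest. No overlap was seen in 12.4% of all genes tested in the higher and 16% in the lower direction. Among the 5 lowest were *Pde8b*, *Car4*, *Egflam*, and *Itgb5*. Of 9 tested genes of the *Car4*-type list, 8 fell, among them *Kdr*, the VEGF-A receptor, at 475 against 2413 CPM (-2.29 ± 0.16).

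Of the 110 vein-gated ECs, 100 (31, 30, and 39 in mice 2, 3, and 4) also had at least 2 UMIs of *Aplnr* and *Kit* together. The rules set these apart from *Aplnr*/*Kit* capillary ECs only by their *Slc6a2* and *Nr2f2* UMIs. Against *Aplnr*/*Kit* capillary ECs, 656 of 7568 genes passed (8.67%), 399 higher (5.27%) and 257 lower (3.4%). Without mouse 4 the count was 302, and without TMM scaling the split was 344 higher and 344 lower. Among the 5 highest were *Cpe*, *Moxd1*, *Fgl2*, and *Ncam1*. No overlap was seen in 9.99% of all genes tested in the higher and 16% in the lower direction. *Cpe* was higher by 8.34 ± 0.47 and *Fgl2* by 7.28 ± 0.33 on the log2 scale, while *Moxd1* (104 UMIs) and *Ncam1* (94 UMIs) had 1 UMI each in the capillary ECs. *Vwf* was 3283 against 55.5 CPM (5.87 ± 0.27) and *Prss23* 571 against 77.5 CPM (2.96 ± 0.13). *Cxcr4* fell by 3.73 ± 0.33, *Adam23* by 3.49 ± 0.37, the gap junction gene *Gja1* by 3.29 ± 0.58, the Notch target *Hey1* by 2.92 ± 0.28, and the Wnt inhibitor *Wif1* by 2.80 ± 0.36 on the log2 scale. Leaving out 1 mouse gave log2 fold changes from -7.64 to -2.71 for *Gja1* and from -5.77 to -3.20 for *Cxcr4*. For *Adam23* they ran from -4.34 to -3.12, for *Hey1* from -3.89 to -2.46, and for *Wif1* from -3.69 to -2.39. In vein-gated ECs *Gja1* had 13.7, 0, and 0 CPM in mice 2, 3, and 4.

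The *Nr2f2*-only members, whose *Sema3c* level was near that of the *Aplnr*/*Kit* capillary ECs, were then set against that class on their own, a comparison chosen after the split had been seen. Of 7024 genes, 93 (1.32%) passed the test, 46 higher (0.655%) and 47 lower (0.669%). *Vegfc* stood at 210, 230, and 193 CPM in *Nr2f2*-only members and at 57.3, 51.2, and 40.8 CPM in *Aplnr*/*Kit* capillary ECs (2.07 ± 0.20, adjusted p = 6.20e-07). *Lhx6* stood at 57.1, 122.1, and 88.3 CPM against 7.54, 8.26, and 4.98 CPM (3.59 ± 0.43). Both genes were higher in every mouse. *Vwf* (264 ± 160 against 55.5 ± 35.8 CPM; 2.22 ± 0.32), *Prss23* (174 ± 76.0 against 77.5 ± 5.21 CPM; 1.25 ± 0.21), and *Eln* (1436 ± 268 against 749 ± 30.8 CPM; 0.95 ± 0.13) also rose. *Ephb4* was 379 against 350 CPM (adjusted p = 0.906).

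In the same comparison *Cxcr4* stood at 57.1, 14.4, and 4.20 CPM against 198, 261, and 218 CPM (-2.93 ± 0.33, adjusted p = 4.10e-06). *Hey1* stood at 67.8, 28.7, and 12.6 CPM against 189, 221, and 194 CPM (-2.32 ± 0.29). *Efnb2* stood at 364, 215.5, and 223 CPM against 620, 621, and 707 CPM (-1.23 ± 0.16). None of these groups overlapped. Of 13 tested genes of the artery list, 6 fell (*Cxcl12*, *Efnb2*, *Gja4*, *Hey1*, *Tm4sf1*, and *Unc5b*) and 2 rose (*Fbln2* and *Fbln5*), and of 9 tested vein genes 4 rose (*Cpe*, *Prss23*, *Vegfc*, and *Vwf*) and none fell. Of all genes tested, 0.655% were higher and 0.669% lower. None of 20 pan-endothelial and none of 14 cell cycle genes passed. The count was 48, 79, and 26 without mice 2, 3, and 4, and 116 with the mouse as a block. Without mouse 4 *Prss23* lost the call (adjusted p = 0.2535), and the other genes given with values here that had passed kept direction and call in these fits. All UMIs of *Cpe* in *Nr2f2*-only members came from 4 cells. Of their 183 *Vwf* UMIs, 135 came from 7 of the 56 cells, 36 cells had none, and the 28 members just inside the rule averaged 42.9 CPM, under the 55.5 CPM of the *Aplnr*/*Kit* capillary ECs.

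*Dll4*, the ligand the study follows, was lowest in vein-gated ECs among the EC classes compared. It is at chr2:119325784-119335962 on the plus strand of GRCm38, and the rule did not read it. It stood at 50.3, 42.4, and 29.8 CPM in vein-gated ECs of mice 2, 3, and 4, a mean of 40.9 ± 10.4 (SD, n = 3). The means were 198 ± 12.3 CPM in all other ECs, 503 ± 51.8 in arterial, 169 ± 19.9 in *Car4*-type, and 196 ± 11.6 in *Aplnr*/*Kit* capillary ECs. No vein-gated value reached the lowest value of any of these groups. The ranges of the 2 capillary classes overlapped, and they were not tested against each other. The log2 fold changes were -2.23 ± 0.16 (adjusted p = 1.23e-05) against all other ECs and -3.65 ± 0.18 (4.52e-14) against arterial ECs. Against *Car4*-type and *Aplnr*/*Kit* capillary ECs they were -1.99 ± 0.20 (3.49e-08) and -2.18 ± 0.19 (2.24e-09). Every alternative run kept the direction and the call, with adjusted p against all other ECs from 5.66e-18 to 0.00352.

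Within the vein-gated ECs, *Dll4* was 6.39, 21.0, and 10.1 CPM in *Slc6a2*-positive members and 74.9, 71.8, and 46.2 CPM in *Nr2f2*-only members, without overlap. Both kinds were under the capillary ECs. Fitted alone, *Slc6a2*-positive members differed from *Aplnr*/*Kit* capillary ECs by -3.75 ± 0.33 on the log2 scale (adjusted p = 4.02e-10) and *Nr2f2*-only members by -1.59 ± 0.21 (2.37e-05). The difference between these 2 folds was not tested.

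A *Dll4* UMI was found in 24 of 110 vein-gated ECs, by mouse in 28.6%, 24.2%, and 14.3% of them, a mean of 22.4% ± 7.33 (SD, n = 3). The mean share was 61.6% in all other ECs, 97.4% in arterial, 60.1% in *Car4*-type, and 61.0% in *Aplnr*/*Kit* capillary ECs. Each difference had p = 0.1 in an exact 2-sided permutation test, the smallest that 3 mice against 3 can give. Of the 24 cells, 5 were among the 54 *Slc6a2*-positive and 19 among the 56 *Nr2f2*-only members. With each cell thinned to 2000 UMIs, the shares were 5.77% in vein-gated ECs against 30.5%, 63.4%, 27.4%, and 28.4% in the same order, with 61 shallower cells left out of all other ECs and none of the vein-gated ECs. In the classes, 1 arterial, 28 *Car4*-type capillary, and 10 *Aplnr*/*Kit* capillary ECs were left out. B cells, which should lack *Dll4*, had a UMI in 0 of 1701 cells, which allows a share of up to 0.176%, at a median depth of 4066 UMIs.

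**Figure D4:**
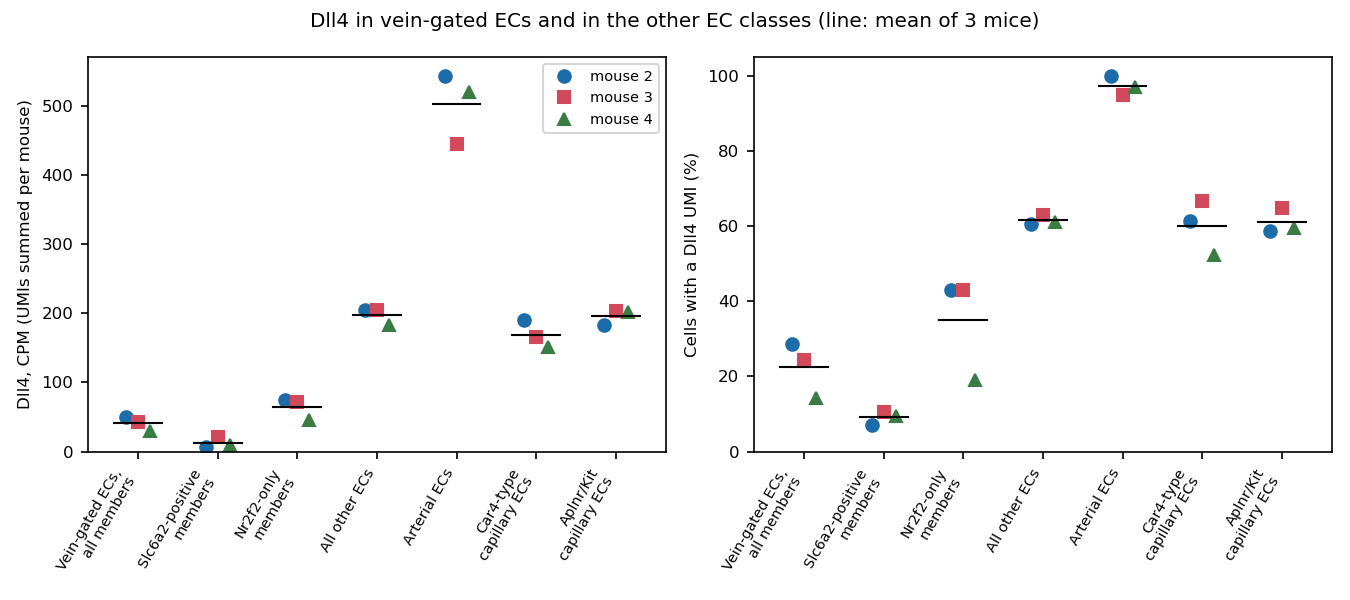
*Dll4* as CPM (left) and as the percent of cells with a *Dll4* UMI (right) in all vein-gated ECs, their 2 kinds, all other ECs, and the 3 EC classes, with each point a mouse and each line the mean of 3 mice. All vein-gated ECs together lay between 29.8 and 50.3 CPM, under all other ECs and the 3 classes, and arterial ECs averaged 503 CPM.

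Of 18 Notch pathway genes tested against all other ECs, 3 rose and 7 fell, with a median log2 fold change of -0.47 beside -0.0006 over all genes. Over all genes tested, 2.71% were higher and 2.96% lower. Among the ligands, *Dll4* fell, while *Jag1* rose by 0.69 ± 0.15 (119 against 76.6 CPM) and *Dll1* by 0.75 ± 0.15 (68.5 against 41.8 CPM). Among the receptors, *Notch4* (-0.57 ± 0.13) fell, as did *Notch3*, a receptor of smooth muscle with 2 UMIs in the vein-gated ECs (1.53 against 14.5 CPM). *Notch1* had 319 against 427 CPM (adjusted p = 0.0519). Among the targets, *Hey1* (24.6 against 169 CPM; -2.71 ± 0.29) and *Nrarp* (30.2 against 61.7 CPM; -0.99 ± 0.18) fell, and *Hey2* and *Heyl* had no UMI in vein-gated ECs. *Hes1* had 164 against 171 CPM (adjusted p = 0.99). The glycosyltransferase gene *Lfng*, which modifies Notch receptors, rose by 0.51 ± 0.13. *Jag1* was higher than in *Car4*-type (1.55 ± 0.23) and *Aplnr*/*Kit* capillary ECs (1.30 ± 0.20) and missed the test against arterial ECs.

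Elastin and its fibulins were among the matrix genes that rose. Of 21 matrix and basement membrane genes tested against all other ECs, 5 rose and 2 fell (median -0.24), and against *Aplnr*/*Kit* capillary ECs 11 rose and 3 fell (median 1.15 beside -0.01). Against arterial ECs 7 rose and 6 fell, and against *Car4*-type capillary ECs 9 rose and 4 fell. All genes tested gave 2.71% higher and 2.96% lower against all other ECs, and 6.71% higher and 6.3% lower against arterial ECs. They gave 8.09% and 6.71% against *Car4*-type and 5.27% and 3.4% against *Aplnr*/*Kit* capillary ECs. Against *Aplnr*/*Kit* capillary ECs the fibroblast markers summed to 414 against 44.2 CPM, and 3 of 3 tested were higher (median 4.02). Their part in the matrix genes was not tested. *Eln* stood at 13230 ± 6250 CPM in vein-gated ECs, 4035 ± 1070 in all other ECs, and 8565 ± 789 in arterial ECs, with log2 fold changes of 1.76 ± 0.29 and 0.61 ± 0.19 (adjusted p = 0.00299 and 0.035). In *Nr2f2*-only members *Eln* averaged 1436 CPM, under both comparators, and in *Slc6a2*-positive members 25740 CPM. *Fbln5*, which binds elastin, was 1347 CPM against 634 in all other ECs (1.13 ± 0.17) and 2360 in arterial ECs (-0.83 ± 0.18). *Mgp*, an inhibitor of calcification, lay 3.75 ± 0.37 above *Car4*-type capillary and at -1.74 ± 0.32 against arterial ECs on the log2 scale. The basement membrane collagen *Col4a1* was at 2036 CPM, above arterial ECs (760 CPM; 1.41 ± 0.14) and below *Aplnr*/*Kit* capillary ECs (3720 CPM; -0.80 ± 0.13). *Col18a1*, also a basement membrane collagen, rose in all 4 comparisons.

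The protein C receptor and the enzymes of prostacyclin synthesis were among the genes that rose. Of 14 tested coagulation genes, 5 rose (*Vwf*, *Thbd*, *Procr*, *Entpd1*, and *Anxa2*) and 3 fell (among them *Plat* and *Plaur*) against all other ECs, with a median of 0.46. Over all genes tested, 2.71% were higher and 2.96% lower in that comparison. *Vwf* is also in the vein list. *Procr*, the endothelial protein C receptor, was 81.2 against 18.5 CPM (2.17 ± 0.27) and rose in all 4 comparisons. *Plat*, tissue plasminogen activator, was 19.8 against 101 CPM (-2.24 ± 0.31) and fell in all 4. *Ptgs1*, cyclooxygenase 1, was 179 against 57.9 CPM (1.67 ± 0.19), and *Ptgis*, prostacyclin synthase, 58.1 against 23.0 CPM (1.36 ± 0.26). Both rose in all 4 comparisons. By kind, *Procr* averaged 153 CPM in *Slc6a2*-positive and 17.2 CPM in *Nr2f2*-only members, *Ptgs1* 327 and 64.9 CPM, and *Ptgis* 90.4 and 23.9 CPM. *Procr* and *Ptgs1* did not pass the test between *Nr2f2*-only members and *Aplnr*/*Kit* capillary ECs (adjusted p = 0.382 and 0.257). Of 16 vasoactive genes, 5 rose and 4 fell against all other ECs (median 0.12), beside the same 2.71% and 2.96% over all genes tested. *Ace*, angiotensin-converting enzyme, was 581 against 872 CPM (-0.54 ± 0.09) and fell in all 4 comparisons. *Nos3*, endothelial nitric oxide synthase, rose by 0.78 ± 0.18 against all other ECs and was 178 against 243 CPM in arterial ECs (adjusted p = 0.149).

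Of 18 BMP and TGF-beta genes, 3 rose (*Bmp4*, *Id2*, and *Tgfb2*) and none fell against all other ECs (median 0.21), while of 16 tested against arterial ECs 1 was higher and 4 lower. Against *Car4*-type and *Aplnr*/*Kit* capillary ECs 6 and 7 were higher and 3 and 1 lower. Over all genes tested, 2.71% were higher and 2.96% lower against all other ECs, and 6.71% and 6.3% against arterial ECs. The shares were 8.09% and 6.71% against *Car4*-type and 5.27% and 3.4% against *Aplnr*/*Kit* capillary ECs. *Bmp4* was 390 CPM against 161 in all other ECs (1.33 ± 0.18) and 341 in arterial ECs (0.18, 95% interval -0.16 to 0.53), and it was 709, 702, and 675 CPM in *Slc6a2*-positive and 96.3, 144, and 147 CPM in *Nr2f2*-only members. Of 14 leukocyte adhesion genes, 4 rose (*Ackr3*, *Icam1*, *Il6st*, and *Jam2*) and none fell against all other ECs (median 0.21), while 3 were higher and 3 lower than in arterial ECs. *Il6st*, the shared receptor chain of the interleukin 6 family, rose by 1.34 ± 0.17 and in the other 3 comparisons too. *Selp* was under the arterial level (20.03 against 124 CPM; -2.69 ± 0.39) and above both capillary classes. Against *Aplnr*/*Kit* capillary ECs *Selp* had 23 against 3 UMIs, a ratio of pooled CPM of 18.7 (95% exact interval 5.65 to 97.3). Of 9 VEGF pathway genes, *Vegfc* and *Nrp2* rose, and *Vegfa* (-1.09 ± 0.15), *Kdr* (-0.87 ± 0.11), and *Flt4* (-0.94 ± 0.17) fell, with a median of -0.30. Of 3 tested genes of the lymphatic list, 2 fell against all other ECs (median -0.94), which were not held to the lymphatic limit. The part of lymphatic cells in the fall of *Flt4* was not tested. *Kdr* was higher than in arterial ECs, at 475 against 196 CPM (1.26 ± 0.18).

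Of 34 transcription factors, 6 rose (*Foxc1*, *Plagl1*, *Tshz2*, *Klf4*, *Foxo1*, and *Fli1*) and 5 fell (*Tbx2*, *Tbx3*, *Meox1*, *Mecom*, and *Prdm1*) against all other ECs, with a median of 0.11. In that comparison 2.71% of all genes tested were higher and 2.96% lower. *Foxc1*, a forkhead factor of vessel development, was 98.2 against 23.0 CPM (2.15 ± 0.34). It was 70.1 CPM in arterial ECs (adjusted p = 0.392) and had 116 UMIs against 2 in *Aplnr*/*Kit* capillary ECs (ratio of pooled CPM 141.5, 95% exact interval 38.3 to 1182). Only 9 of the 116 UMIs were in *Nr2f2*-only members. These averaged 12.2 CPM (7.13, 0, and 29.4 in mice 2, 3, and 4), under the mean of 23.0 CPM in all other ECs. *Mecom*, a zinc finger factor, was 44.4 CPM in vein-gated and 507 CPM in arterial ECs (-3.60 ± 0.26). *Sox17*, a factor of arterial identity, was lower than in arterial ECs by a smaller amount (-0.49 ± 0.14). Of 31 tested in the other comparisons, 9 were higher and 6 lower against arterial ECs, 9 and 6 against *Car4*-type, and 7 and 6 against *Aplnr*/*Kit* capillary ECs. All genes tested gave 6.71% and 6.3%, 8.09% and 6.71%, and 5.27% and 3.4% in the same order. *Meox1* fell in all 4 comparisons, and *Foxc1* and *Plagl1* rose in 3 and 4 of them.

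Cell cycle genes did not pass the test against all other ECs (0 of 14, median -0.26), and 7 of 13 were higher than in arterial ECs, beside 6.71% of all genes tested. Summed, they were at 1234 CPM in *Nr2f2*-only and 249.5 CPM in *Slc6a2*-positive members, beside 290 CPM in arterial ECs. *Mki67* was 73.5 CPM in vein-gated and 12.5 CPM in arterial ECs (2.41 ± 0.75). Its UMIs came from *Nr2f2*-only members (126 CPM), while 0 of 54 *Slc6a2*-positive members had one, which allows up to 5.56% of cells with a UMI and sets no limit on cells that express it. Immediate early genes, which rise when tissue is dissociated, were higher than in *Aplnr*/*Kit* capillary ECs in 7 of 10 tested (median 0.72) and than in all other ECs in 1 of 11 (*Fosb*). Against *Car4*-type capillary ECs 4 of 10 were higher, and against arterial ECs 3 higher and 1 lower. Over all genes, 5.27% were higher and 3.4% lower against *Aplnr*/*Kit* capillary ECs. The shares were 8.09% and 6.71% against *Car4*-type capillary and 6.71% and 6.3% against arterial ECs. Summed, immediate early genes were at 2599, 3617, and 5074 CPM in *Slc6a2*-positive and at 1533, 1645, and 1845 CPM in *Nr2f2*-only members, without overlap. The part of dissociation in other results was not tested. Of 4 tested monoamine genes none passed against all other ECs, and *Maoa*, monoamine oxidase A, was lower than in *Aplnr*/*Kit* capillary ECs (-0.86 ± 0.16). Axon guidance genes (1 higher and 3 lower of 15), lipid uptake genes (1 and 1 of 10), ephrin B and Eph genes (1 and 2 of 7), and angiopoietin genes (2 and 1 of 6) had called members in both directions against all other ECs, with 2.71% higher and 2.96% lower over all genes tested. Of 15 axon guidance genes, 7 were lower than in arterial ECs and 7 lower than in *Car4*-type capillary ECs, with 3 and 2 higher. Of 20 pan-endothelial genes, 3 rose and 1 fell.

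**Figure D5:**
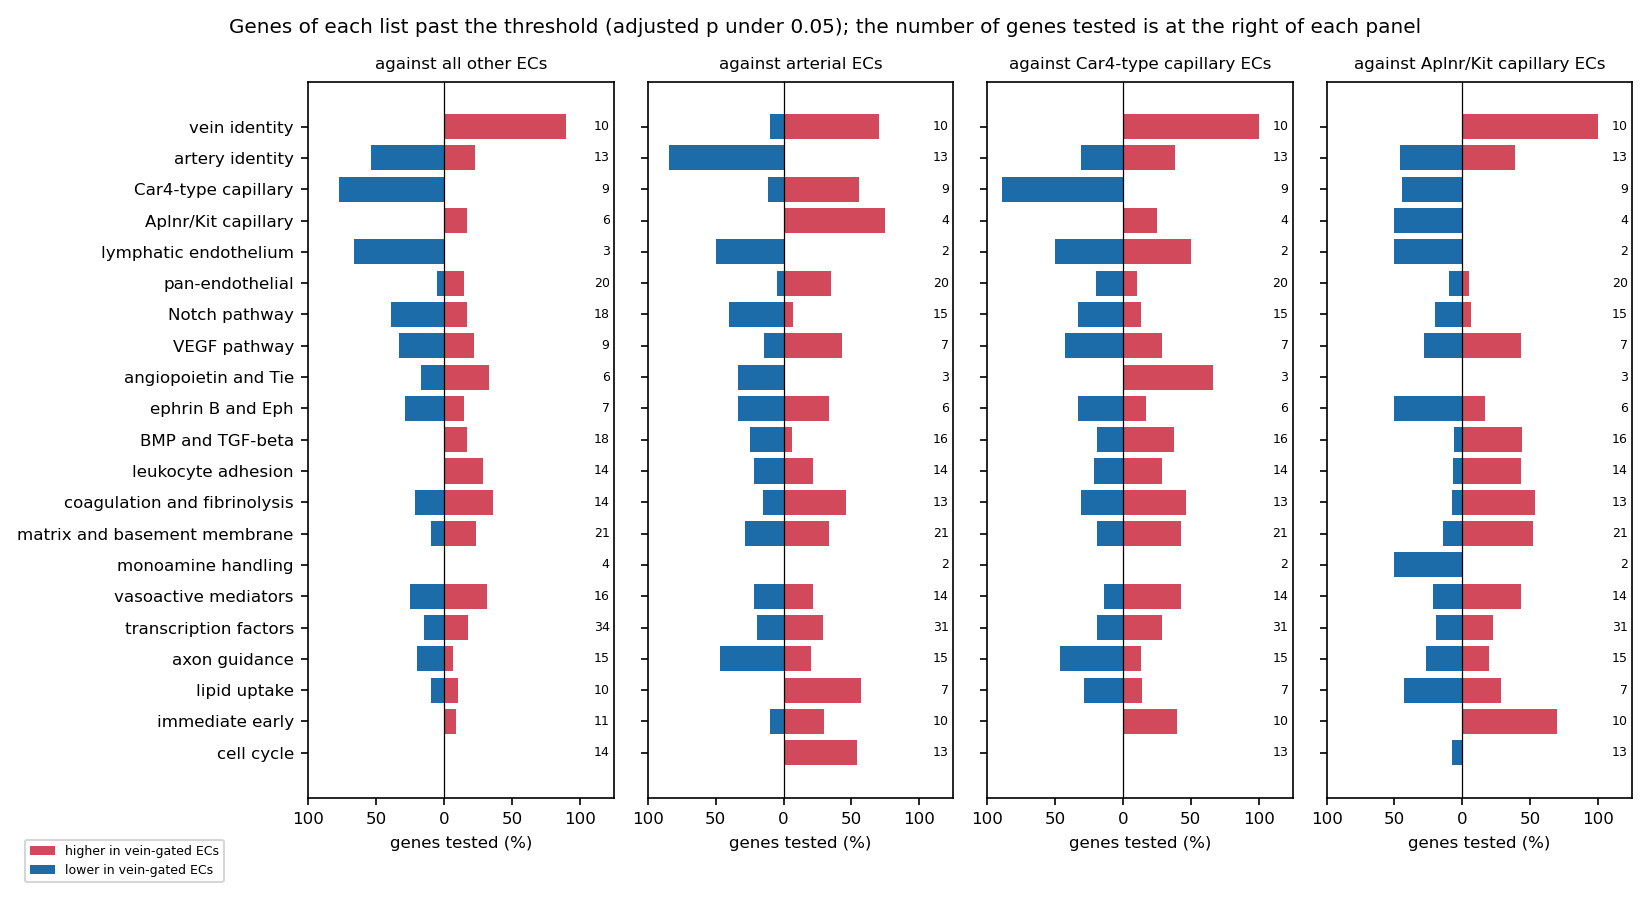
Percent of the tested genes of each list that were higher or lower in vein-gated ECs in each of the 4 comparisons, with the number tested at the right. Of the vein list, 9 of 10 genes were higher than in all other ECs, and of the artery list 11 of 13 were lower than in arterial ECs. The shares over all genes tested were 2.71% and 6.3%.

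Markers of immune cells summed to 82.8 ± 54.4 CPM in vein-gated ECs and 521 ± 440 CPM in all other ECs, with *Lyz2* the most abundant and *Cd79b*, *Cd3e*, and *Nkg7* at 0 in the vein-gated ECs. Epithelial markers summed to 163 ± 32.3 against 893 ± 999 CPM (*Scgb1a1* the most abundant, *Krt8* and *Aqp5* at 0). In all other ECs the epithelial sum was 459, 185, and 2036 CPM in mice 2, 3, and 4. Smooth muscle and pericyte markers summed to 35.0 against 249 CPM (*Tagln* the most abundant, *Cnn1* and *Cspg4* at 0). Cardiomyocyte markers, which cuffs of heart muscle around lung veins could add, summed to 28.4 against 28.0 CPM, with *Myl4* the most abundant at 20 UMIs and *Tnnt2* and *Myh6* among 8 genes at 0. Fibroblast markers summed to 414 ± 173 CPM in vein-gated ECs, 823 in *Slc6a2*-positive, and 43.3 in *Nr2f2*-only members, beside 525 in all other, 96.7 in arterial, 30.8 in *Car4*-type, and 44.2 in *Aplnr*/*Kit* capillary ECs. Against all other ECs 1 of 8 tested was higher and 1 lower, and 2 of 3, 3 of 3, and 3 of 3 were higher against the 3 classes in that order (medians 1.86, 5.04, and 4.02). Of all genes tested, 2.71% were higher and 2.96% lower against all other ECs. Against the 3 classes 6.71%, 8.09%, and 5.27% were higher. Of the fibroblast markers, *Col14a1* gave 236 UMIs, 226 of them in *Slc6a2*-positive members, while *Pdgfra* and *Tcf21* were at 0. Platelet markers summed to 38.4 against 34.8 CPM (*Itgb3* the most abundant, *Ppbp* and *Treml1* at 0). Mesothelial (2.02 against 4.73 CPM, *Krt19* the most abundant) and erythroid (1.77 against 2.39 CPM) markers were near 0. The part of these cells in the genes that were lower against all other ECs was not tested beyond the comparator under the same limits.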

How the data were processed

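Libraries were made with 10x v3 chemistry from digested lungs and processed one by one with Cell Ranger 3.0.2 on mm10, and the authors deposited the raw UMI count of each gene for every droplet kept as a cell. The annotation is not given in the sources used here. The design text states 5677 cells, and the files hold 9644. The members, gene lists, and comparisons were chosen with earlier results of these data known. Counts were summed per mouse and class and tested with edgeR 4.0.16 (quasi-likelihood test, TMM, filterByExpr, Benjamini-Hochberg adjustment, threshold 0.05; R 4.3.3), with 6 sums against all other ECs and 12 sums in 1 fit for the 3 subtype comparisons. In the latter *Aplnr* and *Kit* were not tested either. Genes with 50 CPM or more, no overlap between mice, and the largest or smallest folds (14 each way against all other ECs, 5 in the others), and all genes of the lists, could be named. Genes of the *Nr2f2*-only comparison were named after their values were seen. On simulated data with 4-fold changes the test recovered 87.2%, 89.1%, 93.2%, and 97.4% of changed genes in the 4 comparisons in the order given. The simulation gave every gene the same spread and did not pair classes by mouse, so these shares need not carry over to the real sums. The classes of 1 mouse share an animal and are thus paired. Their deviations from class means correlated with r from 0.00868 to 0.195, and mouse was added as a blocking factor in an alternative. DESeq2 1.42.0, other cell filters, thresholds, doublet removal, and leaving out each mouse were alternatives. Coordinates are from GENCODE M21 and promoters from RefSeq on GRCm38.p6, which had no window matched for *Slc6a2* or *Vwf*. Genes that overlap others on the opposite strand, such as *Fgl2* and *Ccdc146*, were kept as counted. Exact intervals cover counting error only. A few genes are not reported here.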

Additional observations from a re-analysis of the deposited data

How the results depend on the processing

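Over 16 kinds of alternative and the leave-one-out fits, 1111 of 1167 values kept their direction and call or moved little, 32 lost the call, 19 moved, and 5 reversed, with the cause not tested. All 70 values of *Dll4* folds kept direction and call. Counts of genes called against all other ECs moved from 567 to 925 with at least 3 *Slc6a2* and *Nr2f2* UMIs, 1196 with *Slc6a2*-positive members only, 279 with *Nr2f2*-only members, and 1218 with *Ednrb* out of the limit. Leaving out 1 mouse gave 141 to 502. Against arterial ECs leaving out 1 mouse gave 603 to 911, and against *Car4*-type capillary ECs 655 to 1024, beside 483 with *Nr2f2*-only members. Against *Aplnr*/*Kit* capillary ECs the same 4 changes of members gave 1009, 1353, 93, and 1119, and leaving out 1 mouse 302 to 605. The share of ECs was 9.03%, 6.01%, 5.93%, and 15.96% under these 4 rules, and 10.7% to 13.0% without 1 mouse. The share with a *Dll4* UMI was 5.77% after thinning and 19.3% to 26.4% without 1 mouse. The 5 reversed values, all with *Nr2f2*-only members, were *Ncam1* (-1.92), *Fgl2* (-1.14), *Cpe* (-1.67), *Pgm5* (-1.05), and *Cygb* (-2.99). The rules for *Nr2f2*-only members, *Ednrb*, and the comparator with at most 1 UMI were chosen after seeing the data. With the mouse as a replicate block the counts were 681, 1056, 1186, and 751, within 1.5 times of the counts without it. DESeq2 gave 581, 778, 867, and 537, and no filter on low counts 823, 1231, 1291, and 911. With 110 cells in 3 mice, genes under about 10 CPM rest on few UMIs, and a missed test there does not show equal levels.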
